A study of Mus musculus with 24 samples.

Results

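The genes described here are 10 genes that move calcium in and out of the sarcoplasmic reticulum of skeletal muscle, found by symbol among the 56748 genes of the deposited count table, where each of the 10 symbols matched a gene. They encode the release machinery (Ryr1, Cacna1s, Trdn), the calcium-binding proteins of the store (Casq1, Casq2), the pumps that refill the store with a peptide that restrains them (Atp2a1, Atp2a2, Sln), and the sensor and channel of store-operated calcium entry (Stim1, Orai1). The rule uses the symbols alone, and the set was proposed with earlier results of these data known.

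When a muscle fibre is excited, the voltage sensor in the transverse tubule opens the ryanodine receptor of the adjoining sarcoplasmic reticulum, and the calcium that leaves the store starts contraction. Calsequestrin buffers calcium inside the store, SERCA pumps return calcium to it, and STIM1 senses an emptied store and opens the ORAI1 channel in the surface membrane. Muscle that lacks dystrophin is known for disturbed calcium handling, including altered store-operated entry.

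RNA was sequenced as 24 libraries in 8 groups of 3. They came from cultured myotubes and fibroblasts from hindlimbs of C57 BL/10 mice or of dystrophin-deficient mdx mice of the same background (C57BL/10-Dmdmdx). All mice were less than 5 days old. Myotubes, the multinucleate cells formed when primary myoblasts fuse, received 1 µM aldosterone, the steroid ligand of the mineralocorticoid receptor, or vehicle (0.001% DMSO) for 48 h, and then fresh medium without the steroid for 15 h before lysis. That medium became conditioned medium, and fibroblasts were kept for 24 h in medium from vehicle-treated or aldosterone-treated myotubes of their own genotype, so the genotype of the fibroblasts and that of the medium cannot be told apart. All groups shared a medium with charcoal-stripped horse serum, which lowers the steroids that serum brings. The myotube cultures were not sorted, and in such bulk samples fewer cells of a type and less RNA per cell cannot be told apart.

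Libraries held 14133165 to 31144746 counts on genes in myotubes and 16964960 to 42698139 in fibroblasts. Dmd, the gene mutated in mdx mice, lay between 331 and 462 CPM (counts scaled to a common library total) in C57 myotubes and between 32.6 and 64.8 CPM in mdx myotubes, and between 24.5 and 39.8 CPM and between 7.67 and 13.4 CPM in the corresponding fibroblasts, so every mdx library was below every C57 library of its cell type. The summed level of 11 myotube marker genes was 20348 to 32411 CPM in myotubes and 15.6 to 132 CPM in fibroblasts. The labels number the replicates of a group and do not say whether a number marks a preparation shared across treatments. In myotubes, libraries with the same number in a genotype deviated together from their group means. The vehicle and aldosterone libraries of a number were therefore treated as a pair, and a culture number below means that replicate number. Each gene called with the pairing over both genotypes is also given without it. Differences below are log2 fold changes from edgeR's quasi-likelihood test with their standard error (SE), and a gene is said to have passed, risen or fallen at a Benjamini-Hochberg adjusted p under 0.05 over all genes tested in that cell type.

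All 10 genes were well expressed in myotubes. Levels are in CPM scaled for library composition, and genes are compared with each other only after division by the gene length in the deposited table (CPM per kb). In C57 vehicle myotubes the order per length was Casq2, at 439 to 479.5 CPM per kb over 3 cultures, then Casq1 at 281 to 344, Atp2a1 at 239 to 335, Atp2a2 at 175 to 210.2, Sln at 107 to 121, Cacna1s at 82.0 to 103, Ryr1 at 70.8 to 98.6, Trdn at 53.4 to 65.5, Stim1 at 25.05 to 29.8 and Orai1 at 22.2 to 23.4. Of neighbours in this order, Casq1 and Atp2a1 overlapped, as did Cacna1s and Ryr1. The others did not overlap. In mdx vehicle myotubes the group means had the same order apart from the last places, although neighbours from Casq2 to Trdn overlapped apart from Casq2 and Casq1: Orai1, at 31.9 to 35.8 CPM per kb, lay above Stim1, at 15.5 to 25.8, with no overlap.

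**Figure D1:**
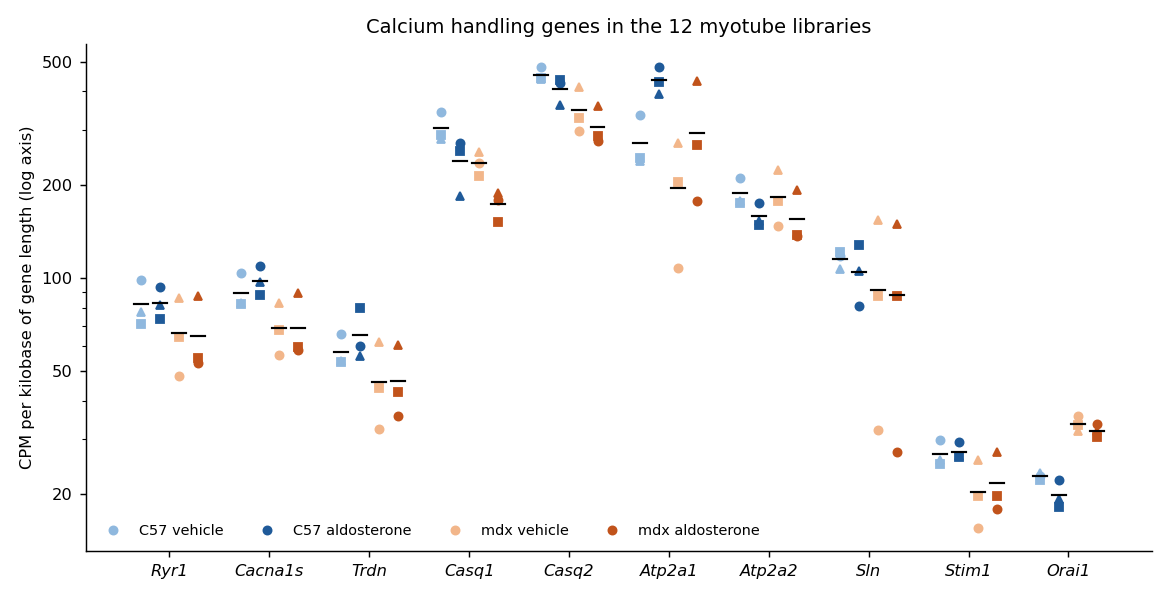
Level of each of the 10 genes in the 12 myotube libraries, in CPM per kb on a log axis, with genotype and treatment by colour; circles, squares and triangles are cultures 1, 2 and 3 and the short horizontal lines are group means. Casq2 is the highest gene per length in C57 vehicle myotubes, at 439 to 479.5, and Stim1 and Orai1 are the lowest, with Orai1 above Stim1 in mdx.

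The region upstream of 3 of these genes is shown because the results below turn on them: Atp2a1 and Casq1, whose levels differed most between aldosterone and vehicle, and Orai1, the member that passed the test between the mouse lines. Each sequence runs 5′ to 3′ on the strand of the gene, from 250 to 41 bases before the start that RefSeq gives on GRCm38.p6, at chr7:126463114-126463323 on the minus strand for Atp2a1, at chr1:172219936-172220145 on the minus strand for Casq1 and at chr5:123014824-123015033 on the plus strand for Orai1. Capitals mark CAGCTG, a form of the E-box, the short motif bound by the myogenic family of helix-loop-helix factors.
Atp2a1: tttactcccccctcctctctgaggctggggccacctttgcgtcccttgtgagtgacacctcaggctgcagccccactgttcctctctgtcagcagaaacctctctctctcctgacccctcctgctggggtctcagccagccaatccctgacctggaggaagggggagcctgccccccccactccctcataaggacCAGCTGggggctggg
Casq1: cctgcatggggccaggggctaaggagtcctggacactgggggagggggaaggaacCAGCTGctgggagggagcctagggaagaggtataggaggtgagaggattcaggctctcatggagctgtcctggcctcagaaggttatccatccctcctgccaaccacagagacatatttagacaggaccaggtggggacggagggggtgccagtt
Orai1: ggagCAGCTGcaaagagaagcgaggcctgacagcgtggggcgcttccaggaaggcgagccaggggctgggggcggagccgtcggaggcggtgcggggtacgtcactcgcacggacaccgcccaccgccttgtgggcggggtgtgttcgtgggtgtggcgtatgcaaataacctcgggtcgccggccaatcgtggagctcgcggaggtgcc
RefSeq promoters were at hand for 7 of the 10 genes (not for Atp2a2, Trdn and Sln), and the 250 bases before the start were searched on both strands. CAGCTG, which reads the same on both strands and is contained in the general E-box CANNTG, stood in 4 of the 7 (Atp2a1, Cacna1s, Casq1, Orai1) and in 13.0% of all 32851 promoters of that length. CANNTG stood in 6 of the 7 and in 66.2% of all promoters. AGAACA, which is the core of steroid hormone response elements of the glucocorticoid and mineralocorticoid receptor type, stood in 0 of the 7 and in 16.1% of all promoters, and the looser palindrome of that element in 0 of the 7 and in 0.387% of all. These are matches of letters in a short window only.

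The question of the aldosterone comparison is how the steroid alters gene expression in myotubes of each genotype. With the cultures paired, and over both genotypes, Atp2a1 rose by 55.8% while Casq1 fell by 24.6%, Atp2a2 fell by 15.2% and Casq2 fell by 10.6%. Each of these 4 moved the same way in 6 of 6 pairs. The genes of calcium release, Ryr1, Cacna1s and Trdn, did not pass, nor did Sln, Stim1 or Orai1. So 4 of 10 members passed, 1 higher and 3 lower, where 8.96% of the 15763 genes tested passed. The median log2 change was -0.06 over the members and 0.01 over all genes. Without the pairing 0 of 10 members passed and 3 had an unadjusted p under 0.05, where 0.216% of all genes passed. DESeq2 without the pairing called Casq1 alone among the members (adjusted p = 0.0287).

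Ryr1 (ENSMUSG00000030592; mm39 chromosome 7, 28702769 to 28824604, minus strand) encodes the calcium release channel itself. In C57 myotubes cultures 1, 2 and 3 held 2152, 1547 and 1689.9 CPM of it with vehicle and 2031, 1606 and 1783 CPM with aldosterone. In mdx myotubes they held 1048, 1405 and 1879 CPM with vehicle and 1159, 1198 and 1901 CPM with aldosterone. The groups overlapped throughout, and the mdx cultures spread more widely than the C57 cultures. The paired difference between aldosterone and vehicle was -0.00 (SE 0.05, adjusted p = 0.98).

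Cacna1s (ENSMUSG00000026407; chromosome 1, 135980488 to 136047560, plus strand) encodes the pore and voltage sensor of the L-type channel in the transverse tubule. In C57 myotubes the vehicle libraries held 676, 537 and 543 CPM of it and the aldosterone libraries 713, 575 and 637 CPM. In mdx myotubes they held 369, 444 and 541 CPM and 382, 389.8 and 584 CPM. It was higher with aldosterone in 5 of 6 pairs, by a mean log2 difference of 0.06 (SE 0.04, adjusted p = 0.445). Trdn (ENSMUSG00000019787; chromosome 10, 32956550 to 33352705, plus strand) encodes triadin, which anchors calsequestrin at the release channel. In C57 myotubes it was 613, 499 and 502 CPM with vehicle and 564, 744 and 522 CPM with aldosterone. Its 6 pairs split evenly, 3 higher and 3 lower with aldosterone, and the mean paired difference of 0.10 (SE 0.09, adjusted p = 0.615) included 0.58 from C57 culture 2, with the other 5 pairs between -0.12 and 0.13. In mdx myotubes Trdn was 304, 412 and 579 CPM with vehicle and 333, 399 and 567 CPM with aldosterone.

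Casq1 (ENSMUSG00000007122; chromosome 1, 172037461 to 172047435, minus strand), which encodes the calsequestrin typical of fast fibres, fell in both genotypes. In C57 cultures 1, 2 and 3 it was 671, 563 and 549 CPM with vehicle and 532, 499.8 and 359 CPM with aldosterone. In mdx cultures it was 457, 417 and 496 CPM with vehicle and 347, 295 and 368 CPM with aldosterone. Vehicle and aldosterone libraries did not overlap in either genotype. The paired log2 difference was -0.41 over both genotypes (SE 0.05, adjusted p = 3.8e-06), -0.37 in C57 (SE 0.07, adjusted p = 0.00124) and -0.44 in mdx (SE 0.07, adjusted p = 0.000413). The C57 value weakened to -0.25 without culture 3 (adjusted p = 0.0517). Unpaired, the difference over both genotypes was -0.40 (SE 0.10, adjusted p = 0.226).

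Casq2 (ENSMUSG00000027861; chromosome 3, 101993731 to 102053830, plus strand), the calsequestrin of heart and slow fibres, was the most abundant member per length with vehicle. With aldosterone in C57 its mean, 408 CPM per kb, was below that of Atp2a1, 434 CPM per kb, and the groups overlapped. Its level was 1312, 1208 and 1201 CPM with vehicle and 1167, 1191 and 992 CPM with aldosterone in C57 myotubes, groups that did not overlap, and 818, 899 and 1136 CPM and 757, 788 and 984 CPM in mdx myotubes, groups that did. Its paired difference over both genotypes was -0.16 (SE 0.04, adjusted p = 0.0175), and unpaired -0.16 (SE 0.10, adjusted p = 0.799). The paired call did not hold in 4 of the 6 fits that left out a pair: the adjusted p was 0.0624 without C57 culture 1, 0.0913 without C57 culture 3, 0.0707 without mdx culture 2 and 0.123 without mdx culture 3. Within C57 alone the difference was -0.15 (adjusted p = 0.164).

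Atp2a1 (ENSMUSG00000030730; chromosome 7, 126045030 to 126062280, minus strand) encodes SERCA1, the calcium pump of fast fibres, and rose more than any other member. C57 cultures 1, 2 and 3 held 1165, 849 and 829.8 CPM with vehicle and 1669, 1492 and 1369 CPM with aldosterone, with no overlap. The mdx cultures held 373, 709 and 948 CPM with vehicle and 614, 935 and 1505 CPM with aldosterone. These groups overlapped, although the aldosterone library was the higher of each pair. The 6 paired log2 changes ran from 0.40 to 0.81. Their mean in the fit was 0.64 (SE 0.05, adjusted p = 5.74e-09), with 0.68 in C57 (SE 0.07, adjusted p = 1.01e-06) and 0.59 in mdx (SE 0.07, adjusted p = 1.14e-05). Unpaired, the same comparison gave 0.63 with an SE of 0.25 and an adjusted p of 0.602.

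Atp2a2 (ENSMUSG00000029467; chromosome 5, 122591576 to 122640288, minus strand) encodes SERCA2, the pump of slow fibres, heart and, as a shorter form, most other cells. C57 cultures held 1278, 1063 and 1076 CPM of it under vehicle against 1063, 899.8 and 924 CPM under aldosterone, where the groups met at 1063 CPM without crossing. The mdx cultures held 897, 1079.7 and 1355 CPM and 832, 833 and 1165 CPM, and these overlapped. It fell in 6 of 6 pairs, by 0.24 on the log2 scale over both genotypes (SE 0.04, adjusted p = 0.00062). Unpaired, the difference was -0.24 (SE 0.12, adjusted p = 0.705). The paired difference was -0.24 in C57 (SE 0.06, adjusted p = 0.0179) and -0.23 in mdx (SE 0.06, adjusted p = 0.0384). Neither single-genotype call held throughout: the adjusted p was 0.139 without C57 culture 1 and 0.0705 without C57 culture 3, and 0.576 without mdx culture 2 and 0.277 without mdx culture 3.

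Sln (ENSMUSG00000042045; chromosome 9, 53757448 to 53761844, plus strand) encodes sarcolipin, a small membrane peptide that uncouples SERCA pumps from transport. Its cultures differed more than its treatments: in mdx myotubes it was 42.3, 115 and 203 CPM with vehicle and 36.0, 115 and 197 CPM with aldosterone. In C57 myotubes it was 155, 159.7 and 141 CPM with vehicle and 107, 169 and 138 CPM with aldosterone. Only C57 culture 1 moved by more than 0.25 on the log2 scale, at -0.54, and the mean paired difference was -0.12 (SE 0.08, adjusted p = 0.441).

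Stim1 (ENSMUSG00000030987; chromosome 7, 101917013 to 102086526, plus strand), the calcium sensor of the store membrane, was 309, 259.8 and 266 CPM with vehicle and 305, 273 and 275 CPM with aldosterone in C57 myotubes. In mdx myotubes it was 161, 204 and 267 CPM with vehicle and 186, 204 and 284 CPM with aldosterone. Its paired difference was 0.06 (SE 0.04, adjusted p = 0.373). Orai1 (ENSMUSG00000049686; chromosome 5, 123153137 to 123168519, plus strand), the pore of the entry channel, was 52.6, 50.9 and 53.7 CPM with vehicle and 50.8, 41.8 and 44.3 CPM with aldosterone in C57 myotubes, and 82.2, 76.9 and 73.3 CPM and 77.5, 70.1 and 73.2 CPM in mdx myotubes. It was lower with aldosterone in 6 of 6 pairs, with a paired difference of -0.14 (SE 0.05) that did not pass (adjusted p = 0.0583) but did without C57 culture 1 (-0.18, adjusted p = 0.027).

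**Figure D2:**
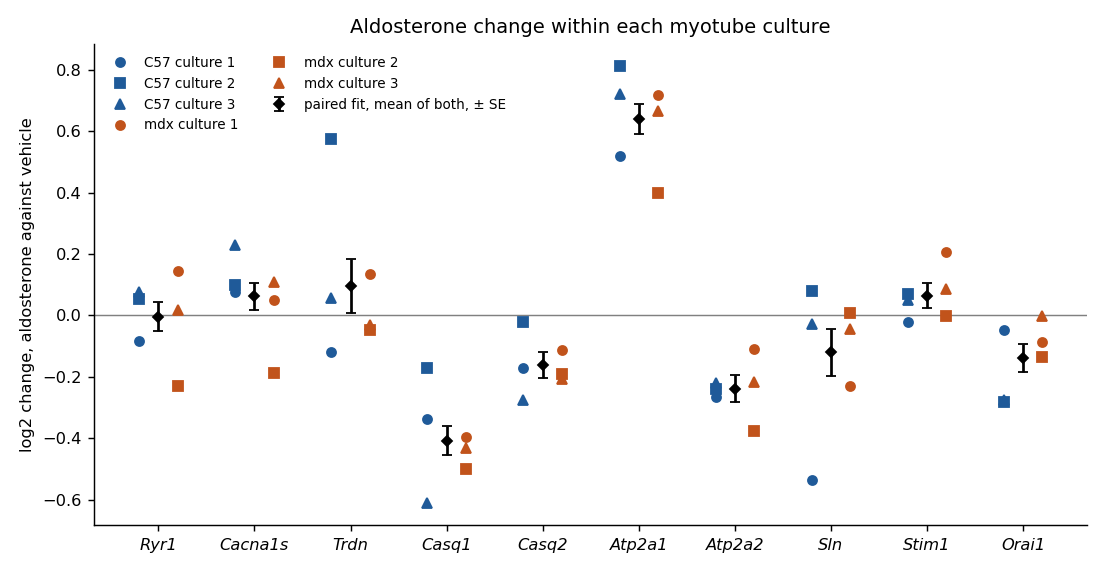
Log2 change with aldosterone in each of the 6 culture pairs (points; C57 and mdx by colour; circle, square and triangle for cultures 1, 2 and 3) with the paired estimate of the mean over both genotypes and its SE. All 6 points are above 0 for Atp2a1 and below 0 for Casq1, Casq2, Atp2a2 and Orai1, while those of the other 5 genes fall on both sides of 0.

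Within a genotype, 3 of 10 members passed the paired test in C57 (Atp2a1 higher, Casq1 and Atp2a2 lower), where 4.98% of all genes did, and 3 of 10 in mdx (Atp2a1 higher, Casq1 and Atp2a2 lower), where 2.33% did. Unpaired, 0 of 10 passed in each, and the lowest adjusted p of these 3 genes was 0.934, for Casq1 in C57. Of the 10, 2 in C57 and 1 in mdx had an unadjusted p under 0.05, and DESeq2 called none of them. Of all genes, 0.0127% and 0% passed unpaired. The difference of the aldosterone effect between the genotypes was tested as an interaction. It passed for 0 of 10 members, with 0 at an unadjusted p under 0.05, and for 0.0444% of all genes paired and 0% unpaired (DESeq2 called 0 members). For Atp2a1 the paired effect in mdx was lower by 0.09 than in C57 with an SE of 0.10 (difference -0.09, adjusted p = 0.989), for Casq1 the difference was -0.07 (SE 0.09, adjusted p = 0.991), and for Atp2a2 it was 0.01 (SE 0.09).

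The ratio of the pumps, Atp2a1 over Atp2a2 per length, summarises the opposite changes in each culture. In C57 cultures 1, 2 and 3 it went from 1.59, 1.40 and 1.35 with vehicle to 2.75, 2.90 and 2.59 with aldosterone. In mdx cultures it went from 0.728, 1.15 and 1.22 to 1.29, 1.96 and 2.26. Every pair rose, and mdx culture 1 with vehicle was the 1 library of the 12 in which Atp2a2 lay above Atp2a1 per length. The ratio of the calsequestrins, Casq1 over Casq2, fell in every pair, from 0.717, 0.654 and 0.641 to 0.639, 0.588 and 0.508 in C57 and from 0.783, 0.651 and 0.613 to 0.643, 0.525 and 0.524 in mdx. Sln over Atp2a1, the restraining peptide against the pump, also fell in every pair, from 0.352, 0.496 and 0.448 to 0.169, 0.298 and 0.266 in C57 and from 0.299, 0.427 and 0.564 to 0.155, 0.326 and 0.345 in mdx. The fall of Sln over Atp2a1 holds the rise of Atp2a1 given above. Sln itself was higher in 2 pairs and lower in 4, and did not pass. The ratios are descriptions and carry no test.

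**Figure D3:**
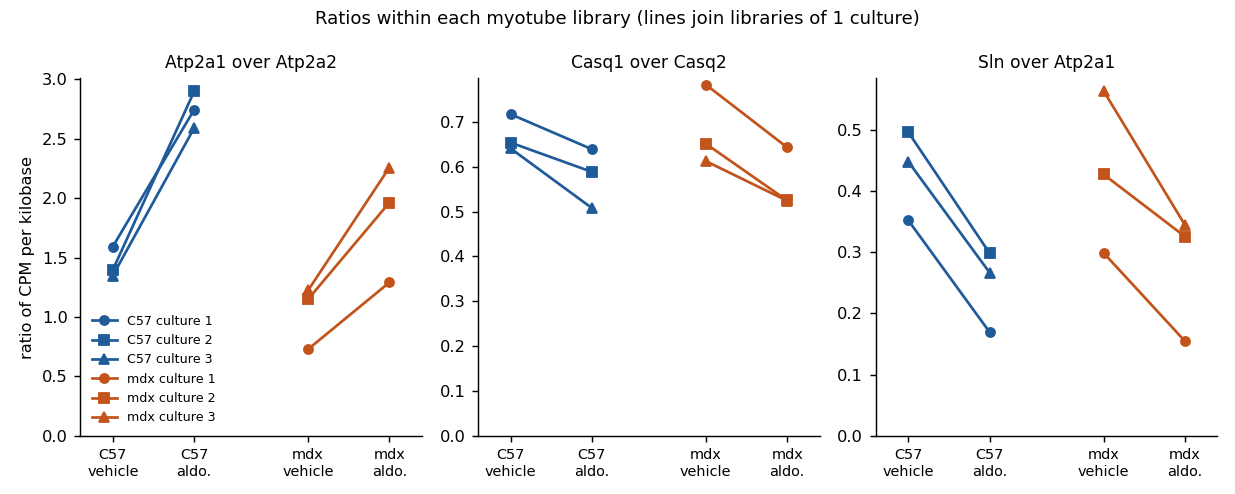
Ratios per length of Atp2a1 to Atp2a2, Casq1 to Casq2 and Sln to Atp2a1 in the 12 myotube libraries, with a line joining the vehicle and aldosterone libraries of each culture number. The pump ratio rises in 6 of 6 cultures, and the other ratios fall in 6 of 6.

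Other gene groups moved beside these genes. In the paired test over both genotypes 8.96% of all genes passed, 693 higher and 719 lower of 15763. Of 8 genes of fast fibre contraction 4 fell and 0 rose in that test, although Atp2a1 is itself typical of fast fibres. Mylpf, Tnni2 and Tnnt3 are on both the fast fibre list and the myotube marker list, so the counts of these lists are not separate. Of 7 genes of slow fibres 1 rose and 0 fell, but only 1 of the 7 was above 0. The median log2 change was -0.11 for the slow list and -0.11 for the fast list, in which 1 of 8 was above 0. Of 11 myotube markers 0 rose and 3 fell, and their summed level was 29335 to 32411 CPM with vehicle and 28380 to 31856 CPM with aldosterone in C57, and 22203 to 29549 CPM and 20348 to 28233 CPM in mdx. Of 9 fibroblast markers tested 0 rose and 3 fell, and of 7 smooth muscle and pericyte markers 0 rose and 2 fell. Of 7 myoblast markers 2 rose and 0 fell, but only 2 of the 7 were above 0 (median -0.10). Of 6 endothelial markers 1 rose and 0 fell, of 4 Schwann cell markers 0 rose and 1 fell, and the 1 adipocyte marker tested rose. The change in macrophage markers differed by genotype, although 5 of 8 rose over both. In mdx all 8 were above 0 (4 called higher, median 1.74), where 2.33% of all genes passed. In C57 0 of 8 were above 0 (1 called lower, median -0.34), where 4.98% of all genes passed. The test of that difference passed for 3 of the 8 and for 0.0444% of all genes. The summed level of the macrophage markers was 6.40 to 175 CPM with vehicle and 4.56 to 145 CPM with aldosterone in C57. In mdx cultures 1, 2 and 3 it was 2.32, 14.5 and 5.90 CPM with vehicle and 2.71, 67.3 and 6.68 CPM with aldosterone. The higher sum with aldosterone in mdx thus lay mainly in culture 2. The part of these in the results for the calcium genes was not tested. Rabep2 overlaps Atp2a1 in the genome and 4632404M16Rik overlaps Casq2, and since the libraries were not directional their reads cannot be told apart; they held 22.5 and 5.42 CPM on average in myotubes.

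Beyond the 10 members, 53 other genes of calcium handling were tested in myotubes, from lists of release channels and their partners, triad structure, reuptake, store-operated entry, and buffers or mitochondrial uptake. In the paired test over both genotypes 3 of 53 rose and 7 fell, where 8.96% of all genes passed, 693 higher and 719 lower of 15763. The 53 had a median log2 change of -0.03 against 0.01 over all genes. Of the 13 triad genes 5 fell and 0 rose. Among them Bin1, a shaper of transverse tubules, changed by -0.21 (adjusted p = 0.00261), Cav3, the muscle caveolin, by -0.17 (adjusted p = 0.00648) and Tmem38a, the TRIC-A counter-ion channel, by -0.18 (adjusted p = 0.00803). Hrc, a calcium-binding protein of the store, changed by -0.19 (adjusted p = 0.0203), and Dysf, the membrane repair protein dysferlin, by -0.13 (adjusted p = 0.0408). Slc8a3, a sodium-calcium exchanger, showed the steepest drop of the 53 at -0.32 (SE 0.06, adjusted p = 0.00104). Ryr3, a minor isoform of the release channel, changed by -0.19 (adjusted p = 0.0303). Those that rose included Itpr3, an inositol trisphosphate receptor (0.17, adjusted p = 0.0354), and Mcu, the pore of the mitochondrial calcium uniporter (0.13, adjusted p = 0.0357). None of the 6 reuptake genes or the 9 genes of store-operated entry passed. Unpaired, 0 of the 53 passed, where 0.216% of all genes did.

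The comparison of the lines asks how mdx cells differ from C57 cells under the same treatment. Orai1 was higher in mdx than in C57 in each of the 4 settings measured: vehicle and aldosterone myotubes, and fibroblasts in either medium. Since the vehicle and aldosterone myotube libraries were treated as pairs, these settings are not independent of each other. The tests between the lines held no term for the culture. In myotubes they thus counted both libraries of a pair as independent, and their SE and adjusted p take no account of the pairing. The other 9 members were lower in mdx myotubes in both treatments without passing. In vehicle myotubes 1 of 10 members passed, where 0.362% of 15763 genes did, and in aldosterone myotubes 1 of 10, where 0.311% did.

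In myotubes with vehicle, Orai1 was 50.9 to 53.7 CPM in C57 and 73.3 to 82.2 CPM in mdx, means of 52.4 ± 1.41 and 77.5 ± 4.48 CPM (SD, n = 3). That was 1.48-fold higher in mdx (log2 0.57, SE 0.08, adjusted p = 0.0126, edgeR). With aldosterone the means were 45.6 ± 4.68 and 73.6 ± 3.71 CPM, 1.61-fold higher in mdx (log2 0.69, SE 0.08, adjusted p = 0.0045). In fibroblasts the libraries in vehicle medium held 17.6, 15.3 and 14.8 CPM in C57 and 25.8, 24.9 and 25.9 CPM in mdx, 1.60-fold higher in mdx (log2 0.68, SE 0.08, adjusted p = 0.000312). In aldosterone medium they held 14.8, 15.6 and 14.2 CPM in C57 and 23.2, 24.7 and 25.4 CPM in mdx, 1.64-fold higher (log2 0.72, SE 0.08, adjusted p = 0.000224). No C57 library of either cell type reached the lowest mdx library of that cell type.

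**Figure D4:**
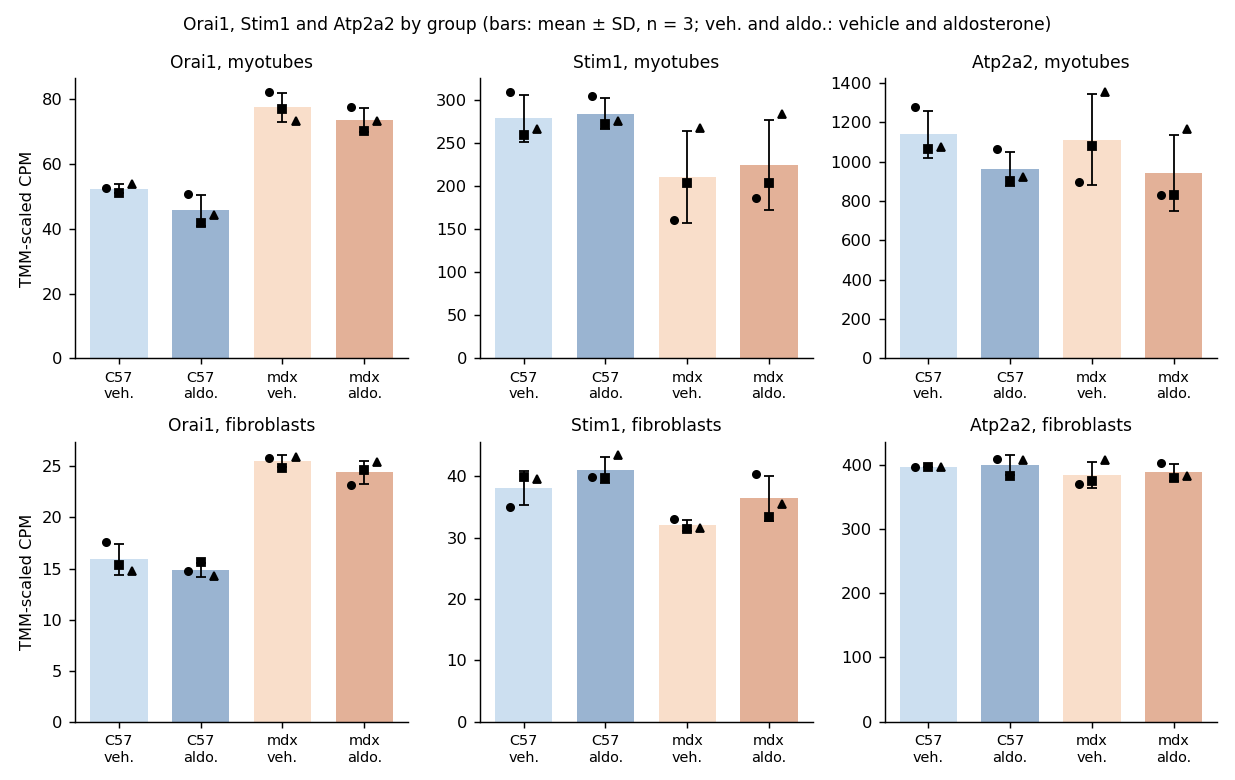
Levels of Orai1, Stim1 and Atp2a2 in CPM in myotubes (top) and fibroblasts (bottom) by genotype and treatment or medium; bars are means, error bars SD (n = 3), and circles, squares and triangles replicates 1, 2 and 3. For Orai1 in myotubes all 6 mdx libraries lie at 70.1 CPM or more and all 6 C57 libraries at 53.7 CPM or less, and in fibroblasts the corresponding limits are 23.2 and 17.6 CPM.

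When a library was left out, the log2 value in vehicle myotubes stayed between 0.52 and 0.60 but passed in only 1 of 6 fits, with an adjusted p of 0.051 to 0.078 in the other 5. In aldosterone myotubes and in both fibroblast comparisons it passed in 6 of 6 fits. Ordered by p, Orai1 stood at place 22 of 57 called genes in vehicle myotubes, 8 of 49 in aldosterone myotubes, 31 of 184 in fibroblasts in vehicle medium and 26 of 205 in aldosterone medium. The fibroblast comparisons called 1.1% and 1.23% of 16671 genes. The line difference in vehicle myotubes minus that in vehicle-medium fibroblasts was -0.12 for Orai1 (SE 0.11, adjusted p = 0.734), and 0 of 10 members passed that test (0 at an unadjusted p under 0.05), where 0.00574% of genes did. In a window of 1 Mb on each side, chosen after the values were seen, Orai1 was the only called gene of 43 tested in myotubes and of 54 tested in fibroblasts, in each treatment.

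Stim1, the partner of Orai1, did not pass between the lines. In mdx myotubes it differed by -0.40 with vehicle and by -0.34 with aldosterone. In fibroblasts in vehicle medium Stim1 was 35.0, 39.8 and 39.6 CPM in C57 and 33.1, 31.4 and 31.6 CPM in mdx, with no overlap (log2 -0.25, SE 0.08, adjusted p = 0.165). In aldosterone medium it was 39.9, 39.7 and 43.5 CPM and 40.5, 33.3 and 35.5 CPM, with overlap (log2 -0.18, adjusted p = 0.332). The ratio of Orai1 to Stim1 per length, chosen after the values were seen, had group means of 0.855 in C57 and 1.75 in mdx vehicle myotubes, and of 1.90 in C57 and 3.60 in mdx fibroblasts in vehicle medium.

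For the other members in vehicle myotubes the log2 difference between mdx and C57 was -0.49 for Atp2a1, -0.38 for Casq2, Casq1 and Cacna1s, -0.35 for Sln, -0.32 for Trdn, -0.31 for Ryr1 and -0.04 for Atp2a2. With aldosterone it was -0.57 for Atp2a1, -0.51 for Cacna1s, -0.49 for Trdn, -0.46 for Casq1, -0.41 for Casq2, -0.35 for Ryr1, -0.25 for Sln and -0.03 for Atp2a2. None of these 8 passed, nor did Stim1. With vehicle, mdx culture 1 was the lowest of the 6 cultures for 8 of these 9 genes, all but Casq1, whereas mdx culture 3 lay within or above the range of the C57 cultures for 7 of the 9, all but Casq1 and Casq2. The summed myotube markers with vehicle were likewise lowest in mdx culture 1, at 22203 CPM, and were 29549 CPM in mdx culture 3. The share of all genes with these positions was not counted. The members' median was -0.36 with vehicle and -0.38 with aldosterone, against -0.00 and -0.02 over all genes. Levels of cell type markers differed in the same comparison, although none passed with vehicle. Over both treatments the summed myotube markers were 28380 to 32411 CPM in C57 and 20348 to 29549 CPM in mdx, and the summed fibroblast markers 303 to 1014 CPM in C57 and 1065 to 4373 CPM in mdx. With vehicle, 0 of 11 myotube markers, 8 of 9 fibroblast markers (median log2 difference 1.66), 0 of 8 macrophage markers (-4.20) and 0 of 6 endothelial markers (-1.85) were above 0. The summed macrophage markers were 4.56 to 175 CPM in C57 and 2.32 to 67.3 CPM in mdx, which overlap, and the summed endothelial markers 72.7 to 222 CPM in C57 and 26.8 to 61.8 CPM in mdx, which do not. In each myotube group 1 or 2 of the listed fibroblast markers had no counts. The part of these markers in the line differences was not tested.

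The 12 myotube libraries share genotype, treatment and culture number and so were not taken as independent points. Across them, 9 members had higher levels where the myotube marker sum was higher. Pearson's r with that sum was 0.963 for Casq2, 0.914 for Cacna1s, 0.904 for Stim1, 0.897 for Trdn, 0.884 for Ryr1, 0.746 for Casq1, 0.735 for Sln, 0.67 for Atp2a1 and 0.646 for Atp2a2. For Orai1 it was -0.724, and r with the fibroblast marker sum was 0.667. Among the 9 members without Orai1, the 36 pairwise correlations had a median of 0.754 and ran from 0.106 to 0.964. Those of Orai1 with the other 9 ran from -0.73 to -0.0046. After each library's deviation from its group mean was taken, the medians were 0.86 and -0.237. The genes most like a member by r over the 12 libraries, among genes of at least 5 CPM, were for Atp2a1 Ndrg2 (0.977), E2f6 (0.968) and Mybpc1 (0.961), and for Casq1 Fbxo40 (0.963), Cdc42ep3 (0.956) and Prepl (0.947). For Orai1 they were Tlr4 (0.944), Glipr2 (0.927) and Cdc14b (0.912), and the gene most like Ryr1 was Pcnt (0.983). Tlr4 reached that limit as an arithmetic mean, but its mean on the log2 scale, with 0.5 added, stood at 3.31 CPM. With deviations from group means the leading genes became Cmya5 for Atp2a1 (0.994), Prr32 for Casq1 (0.96) and Pnrc1 for Orai1 (0.978).

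The same genes marked the cell types apart. In vehicle cultures of each line, 10 of 10 members passed as higher in myotubes than in fibroblasts, where 37.5% of genes in C57 and 36.2% in mdx did. The members fell into a muscle-restricted set and a shared set. The log2 difference in C57 and mdx was 8.85 and 9.78 for Ryr1, 9.79 and 10.94 for Cacna1s, 10.41 and 11.17 for Trdn, 8.99 and 9.80 for Casq1, 10.32 and 11.28 for Casq2, and 9.24 and 10.05 for Atp2a1. Sln had 0 counts in the 3 mdx fibroblast libraries in vehicle medium. Its mean in mdx vehicle myotubes, 119.9 CPM, was at least 689.6-fold above a floor of 3 counts per library. The lowest of these myotube libraries held 42.3 CPM. The shared set differed far less: Stim1 by 3.10 and 2.95 (SE 0.16), Orai1 by 1.95 and 1.83 (SE 0.08) and Atp2a2 by 1.76 and 1.76 (SE 0.13). Per length, Atp2a2 averaged 64.4 CPM per kb over the 12 fibroblast libraries, Orai1 8.79 and Stim1 3.56, so Orai1 stood above Stim1 in fibroblasts of both lines. Of 52 other genes of the pathway tested in both cell types, 35 were higher and 13 lower in myotubes in each line. Triad genes were nearly all higher, 12 of 13, whereas store-operated entry held both, with Stim2 higher in myotubes (1.02 in C57 and 1.04 in mdx) and Orai3 (-0.86 and -0.60) and Stimate (-1.74 and -1.24) lower.

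The conditioned-medium comparison asks whether medium from aldosterone-treated myotubes alters fibroblasts. Of the 9 members that could be tested there (Sln was too low), 0 passed over both genotypes, in C57, in mdx or in the difference between them, with 1, 0, 1 and 0 members at an unadjusted p under 0.05. DESeq2 called 0 members in these. Of all genes, 0.012%, 0%, 0% and 0% passed. The members' median log2 difference was 0.25 over both genotypes, -0.28 in C57 and 1.20 in mdx, against 0.00 over all genes in each, and 6 of the 9 were muscle genes at no more than 9.92 CPM. Atp2a2 was 396, 396 and 396 CPM in C57 fibroblasts in vehicle medium and 409, 382 and 407 CPM in aldosterone medium, and 369.7, 375 and 407 CPM and 403, 379 and 382 CPM in mdx fibroblasts, a difference of 0.01 over both. Stim1, with the values above, was higher in aldosterone medium by 0.15 (SE 0.06, adjusted p = 0.254). Orai1 was lower by 0.08 on the log2 scale (difference -0.08, adjusted p = 0.524). Of 43 other pathway genes 0 passed between media in either line, and between lines Cav3 alone was higher in mdx fibroblasts, by 0.90 in vehicle medium (adjusted p = 0.017) and 0.89 in aldosterone medium (adjusted p = 0.0202), at 1.63 to 4.39 CPM.

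The 7 muscle-restricted members left a trace in fibroblast libraries. Their median level there was 0.0228% to 0.358% of that in vehicle myotubes of the same genotype. Ryr1, for example, was at 9.18, 2.20 and 1.86 CPM in C57 fibroblasts in vehicle medium, 0.866, 5.21 and 3.59 CPM in aldosterone medium, and 0.290, 1.70 and 3.55 CPM and 0.933, 9.92 and 1.71 CPM in mdx fibroblasts. The libraries with the most were C57 vehicle medium 1, with a summed 20.9 CPM of these genes and 107 CPM of myotube markers, and mdx aldosterone medium 2, with 22.5 and 132 CPM. The library with 15.6 CPM of myotube markers, C57 aldosterone medium 1, held 1.91 CPM. Over the 12 fibroblast libraries r with the myotube marker sum was 0.977 for Atp2a1, 0.969 for Casq1, 0.945 for Ryr1, 0.943 for Casq2, 0.934 for Cacna1s, 0.912 for Trdn and 0.839 for Sln. It was 0.0318 for Atp2a2, -0.105 for Stim1 and -0.0282 for Orai1.

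**Figure D5:**
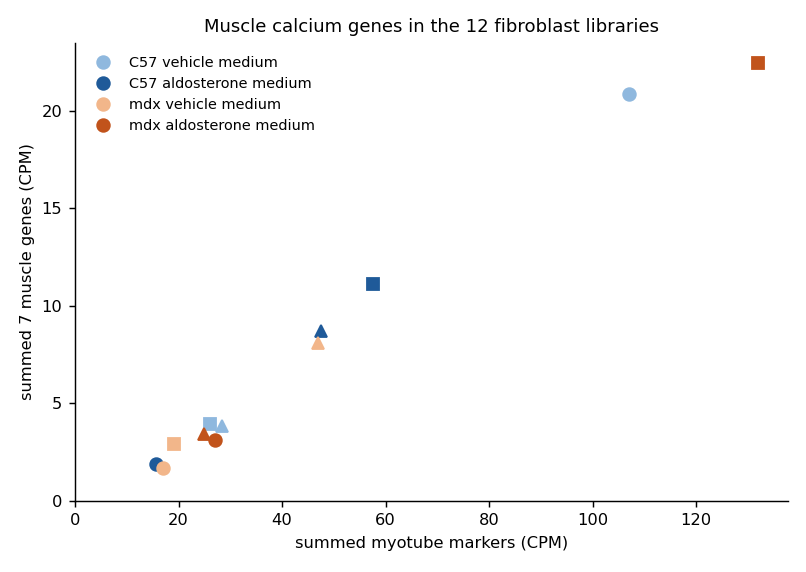
Summed level of the 7 muscle-restricted members (Ryr1, Cacna1s, Trdn, Casq1, Casq2, Atp2a1, Sln) against the summed myotube markers in the 12 fibroblast libraries, in CPM, coloured by genotype and medium, with circles, squares and triangles for replicates 1, 2 and 3. The 2 libraries with the highest marker sums, 107 and 132 CPM, also hold the most of these genes, at 20.9 and 22.5 CPM.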

How the data were processed

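RNA was poly(A)-selected and made into non-directional libraries, per the labels' protocols. The deposited file holds raw counts per gene from featureCounts 1.5.0-p3 on mm39, per the submitters' processing notes. Aligner and annotation release: not given in the sources used here. Members and gene lists were chosen with earlier results of these data known, and the genes named are all members, list genes past the threshold and, for some members, the genes most like them; a few that the rule names are not reported here. The counts were analysed in R 4.3.3 with edgeR 4.0.16 (filterByExpr, TMM scaling, robust quasi-likelihood test, Benjamini-Hochberg adjustment), separately for the 12 myotube libraries (15763 genes) and the 12 fibroblast libraries (16671 genes), and jointly for the 12 vehicle libraries (17435 genes). The SE is the log2 fold change divided by the square root of the F statistic. The labels call the 3 libraries of a group biological replicates and do not say whether a number marks a preparation shared across treatments. In myotubes the residuals of same-numbered libraries correlated at 0.726, 0.512 and 0.381 in C57 and at 0.722, 0.678 and 0.584 in mdx, over the limit of 0.1 in every pair, and a term for each culture gave the paired test. Alternatives were RLE scaling, no filter, DESeq2 1.42.0, and leaving out each library or pair. The paired and unpaired tests of the mean aldosterone effect in myotubes were also run on simulated counts with known changes. The other tests were not checked in this way. Levels are CPM after TMM scaling, and gene lengths are those of the deposited table.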

Additional observations from a re-analysis of the deposited data

How the results depend on the processing

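No result for a member reversed after it had passed; of 2002 values for single members under other settings, 209 differed in sign where neither value passed. Against the unpaired fits, 497 values under other settings kept their call and 11 gained it, 10 of these with the replicate block in myotubes and the other Casq1 with DESeq2. With a library left out, 1147 values kept their call and 5 lost it, all Orai1 in vehicle myotubes. Of paired values with a culture left out, 329 kept their call, 4 gained it and 9 lost it. Counts of called genes depended on the tool. Without the filter on low counts the number of genes called was 84 instead of 34 for the mean aldosterone effect, 26 instead of 2 in C57, 16 instead of 0 in mdx, 156 instead of 57 and 163 instead of 49 between lines in vehicle and aldosterone myotubes, 215 instead of 2 for the mean medium effect, 65 instead of 0 in C57 and 2 instead of 0 in mdx fibroblasts, 436 instead of 184 and 452 instead of 205 between fibroblast lines, and 82 instead of 1 for the line difference between cell types. DESeq2 called 162, 59, 19, 373, 485, 298, 73, 474, 547 and 363 in place of 34, 2, 0, 57, 49, 2, 0, 184, 205 and 1 in the same comparisons without mdx fibroblasts. With the replicate block the myotube counts were 1412 over both genotypes, 785 in C57, 367 in mdx and 7 for their difference. In fibroblasts same-numbered libraries correlated at 0.0319, 0.171 and 0.149 in C57 and at 0.223, 0.346 and 0.161 in mdx, so they were not treated as paired, and C57 libraries 1 and 3 did not correlate best with their own number; the block gave 3 genes instead of 2 over both genotypes and changed no other count and no call of a member. Stim1 passed there with the block when mdx replicate 2 was left out (0.17, adjusted p = 0.0429). The causes were not tested. The next counts of called genes come from leaving out 1 library, or 1 same-numbered pair for values marked paired or with the block. The mean aldosterone effect gave 14 to 47 genes (739 to 1713 paired), with 0 in C57 (401 to 857 paired) and 0 in mdx (101 to 300 paired). The difference of these effects gave 0 (2 to 23 paired), and the comparisons between myotube lines 20 to 104 and 12 to 37. The mean medium effect gave 1 to 950 (0 to 1786 with the block), with 0 in C57 (2 to 13 with the block). In mdx the medium effect gave 0 to 24 (0 to 305 with the block), and the difference of the medium effects 0 (0 to 2 with the block). Between fibroblast lines there were 93 to 249 and 89 to 170. Between cell types there were 12440 to 12672 and 11556 to 12181, and for the line difference between cell types 1 to 309. The 950 came without mdx aldosterone-medium fibroblasts 2, and the 104 and 309 without mdx vehicle myotubes 3. Without scaling by gene length the mean ratio over the myotube libraries was 1.01 instead of 1.77 for Atp2a1 to Atp2a2, 0.445 instead of 0.624 for Casq1 to Casq2, 0.131 instead of 0.345 for Sln to Atp2a1 and 0.269 instead of 1.22 for Orai1 to Stim1 (this last ratio and its alternative were added after seeing the data), each by a factor that is the same in all libraries. Values near 0 counts, as for Sln in fibroblasts, are limited by depth.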
